A study of Mus musculus with 60 samples.

Results

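Lcn2, the gene of lipocalin-2, was followed through mouse hepatocytes grown with interleukin-6 (IL6) and through liver regenerating after surgery. It is 1 of 19456 gene symbols measured, 19355 in a table of cells and 17473 in a table of livers. It was chosen by its FPKM values, for the largest rise from fresh hepatocytes to matured cells, so its levels against hepatocytes and its levels in matured cells are given as a description, without a test. Its values in the regenerating liver and its differences among cultured progenitors played no part in that choice and were tested.

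RNA-seq of poly(A) RNA was available for 60 samples in 20 groups of 3, all labelled as wild-type (WT) C57BL/6 mice, which were 8 to 10 weeks old where the methods give an age. The methods write C57BL/6J, and describe the clones as grown from hepatocytes of mice that carried Albumin-Cre and the reporter R26RtdTomato, which the labels of clone-1 do not give. Hepatocytes were freshly isolated by liver perfusion. IL6-iHPCs, which the study named IL6-induced hepatic progenitor cells, were hepatocytes grown in hepatocyte culture medium with EGF, HGF and IL6 (IL6-HCM): at day 3 and day 14 of the first culture (IL6-iHPCs-D3 and IL6-iHPCs-D14, both P0), at passage 10 from mouse-1 and from mouse-2 (P10), at passage 35 from mouse-1 (P35), and at passage 20 of clone-1 (P20), a line grown from a single hepatocyte. The 4 passaged groups are called lines here, with mouse-1 at P10 and at P35 counted apart. IL6-iMHs were each of these 4 lines after 7 days in a maturation medium. That medium held dexamethasone and oncostatin M, a cytokine of the IL6 family, and no EGF, HGF or IL6. The methods list dexamethasone in IL6-HCM too, at a lower dose. Livers were normal or were taken 6 h, 24 h, 3 days, 7 days and 14 days after 2/3 partial hepatectomy (PHX), in which most of the liver is removed and the remnant regrows. The samples of a cell group are described as technical repeats, so a p-value in the cell table measures only the spread between repeats, and each group is a single preparation. The labels do not say whether the 3 livers of a time were 3 animals. Sequencing was deep: 49.29 to 88.83 M reads (mega, 1e6) fell on genes in the cell libraries and 52.04 to 79.22 M in the liver libraries.

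Lipocalin-2, also called NGAL, is a small secreted protein that binds siderophores, the iron carriers of bacteria, and so withholds iron from them. It is an acute phase protein: hepatocytes make it under IL6 acting through STAT3, and under interleukin-1 acting through NF-kB with its cofactor Nfkbiz and the C/EBP factors. Neutrophils store it in their granules, where it can be bound to the protease Mmp9, and Slc22a17 and Lrp2 (megalin) are described as its receptors.

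Lcn2 lies on the minus strand of chromosome 2, at chr2:32384633-32388252 of GRCm38 in the GENCODE M21 annotation (ENSMUSG00000026822.14), which lists 6 transcripts. The main transcript has 6 exons and 915 spliced bases. The 192 bases of RefSeq promoter sequence that lie upstream of its GENCODE start, at chr2:32387798-32387989 of GRCm38.p6 on the minus strand, are shown because the factors with binding motifs searched for here are themselves measured in these samples. Capitals mark the 1 match to the C/EBP motif.
Lcn2 promoter: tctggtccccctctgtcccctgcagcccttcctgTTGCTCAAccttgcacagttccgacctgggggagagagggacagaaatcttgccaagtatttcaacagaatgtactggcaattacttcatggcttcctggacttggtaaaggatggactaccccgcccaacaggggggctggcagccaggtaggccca

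The motifs were searched on both strands of the 250 bases before the RefSeq start of each gene. TTGCNNAA, taken as the C/EBP motif, occurred once before Lcn2, at base -216 from the RefSeq start, and in 9.56% of 32851 promoters. It was found in 13 of the 23 acute phase genes that had a promoter sequence. TTCNNNGAA, taken as the STAT motif, occurred in 7.02% of all promoters and in 6 of those 23 genes, and an NF-kB motif, GGG and TTTCC separated by 2 bases, in 1.41% and in 3 of the 23. Neither set of letters was present in the 250 bases before Lcn2. A match is a description of letters in this window and not a measured binding site.

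Levels are given in FPKM, the fragments of a gene scaled to its transcript length and to the mapped reads of the library. In hepatocytes, Lcn2 was at 2.97, 3.18 and 2.49 FPKM (2.88 ± 0.35, SD, n = 3), which came from 120 to 210 reads a library. It ranked between 6443 and 6703 among the genes of those libraries by FPKM. The transcript was therefore measurable, at a low level, before culture.

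After 3 days in IL6-HCM, Lcn2 was at 2055, 2175 and 1636 FPKM (1955 on average). At day 14 it was at 1513, 1664 and 1605 FPKM (1594). All 6 libraries of the first culture lay far above the 3 hepatocyte libraries. By then Lcn2 ranked between 11 and 15 at day 3 and between 19 and 23 at day 14, and took 0.167% of all reads at day 3 against 0.000246% in hepatocytes. The difference from hepatocytes on the log2(FPKM + 1) scale was 8.97 ± 0.10 (SE) at day 3, where it was the largest rise of 12328 genes tested, and 8.69 ± 0.10 at day 14, where it was second.

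From day 3 to day 14 Lcn2 did not pass the test. The samples of both days overlapped, and the difference of -0.29 ± 0.10 had an adjusted p of 0.0116 (limma with Benjamini-Hochberg adjustment over all genes) but was under the 2-fold that a call also required. Of 29 acute phase genes, 10 rose and 10 fell over the same days, with a median of 0.64 log2 against -0.16 over all genes, of which 5.12% rose and 5.05% fell. Saa1, one of the serum amyloid A proteins, fell by 2.75 ± 0.19 (adjusted p = 2.19e-13) and Orm2, an orosomucoid, fell by 2.33 ± 0.12 (adjusted p = 4.96e-16). Itih3, a carrier of hyaluronan, rose by 4.80 ± 0.11 (adjusted p = 6.81e-25) and Crp, C-reactive protein, by 3.14 ± 0.11 (adjusted p = 4.24e-20).

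Passaged IL6-iHPCs spanned a 9.80-fold range of Lcn2. Mouse-1 (P10) was at 7979, 9442 and 8407 FPKM, where Lcn2 ranked 1 to 3 among all genes and took 0.735% of the reads. Mouse-2 (P10) was at 4451, 4438 and 4399 FPKM, and clone-1 (P20) at 3524, 3639 and 4277 FPKM. Mouse-1 at P35 was at 992, 1000.5 and 964 FPKM. No library of one passaged line overlapped with another line.

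The 4 lines together were above day 14 (1.12 ± 0.08 log2, adjusted p = 1.64e-13), where 4.89% of genes rose. Under quantile normalization this was 0.96 log2, under 2-fold, and no longer called. The lines also differed in direction: mouse-1 at P35 lay below every day 14 library. Against mouse-1 (P10), Lcn2 was lower by 3.12 ± 0.10 log2 in the same line at P35 (adjusted p = 4.87e-22) and by 1.18 ± 0.10 in clone-1 (P20) (adjusted p = 6.23e-12), where 8.94% and 7.45% of genes fell. In mouse-2 (P10) it was lower by 0.95 ± 0.10 (adjusted p = 3.07e-09), just under 2-fold and so not called, where 1.83% of genes fell. The fall at P35 ranked 153 among 12328 genes, whereas the median of all genes was 0.36 higher at P35.

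Acute phase genes were low together with Lcn2 at P35, and also in clone-1 (P20). In clone-1 (P20) against mouse-1 (P10), 22 of 29 acute phase genes fell and 4 rose, with a median of -2.17 log2, where 7.45% of all genes fell. From P10 to P35 of mouse-1, 23 of the 29 fell and 1 rose, with a median of -3.71 log2, where 8.94% of all genes fell. Saa1 fell by 6.72 ± 0.19 (adjusted p = 3.10e-23), from a mean of 1230.2 to 10.6 FPKM, and Hp, haptoglobin, which binds free hemoglobin, fell by 4.44 ± 0.09 (adjusted p = 3.59e-26), from 8309.8 to 380.2 FPKM. Of the receptors, Il1r1, which binds interleukin-1, fell by 3.88 ± 0.09 (adjusted p = 1.16e-25) and Osmr, the oncostatin M receptor, fell by 1.75 ± 0.09 (adjusted p = 4.96e-17). Cebpb and Cebpd, C/EBP factors of the acute phase, rose by 1.57 ± 0.32 (adjusted p = 5.25e-05) and 1.23 ± 0.09 (adjusted p = 6.62e-13), the second of which was not called under quantile normalization. Saa3 was at -0.01 ± 0.26 (adjusted p = 0.989). In that comparison 24.8% of all genes rose, and rises made up 73.5% of the called genes, or 51.4% after quantile normalization.

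Lcn2 stayed high in matured cells, given here as a description. IL6-iMHs from mouse-1 (P10) were at 5579.9, 5714 and 6623 FPKM, those from mouse-2 (P10) at 8211, 8548 and 8863 FPKM, and those from clone-1 (P20) at 6436, 6554 and 7191 FPKM. Those from mouse-1 (P35) were at 1555, 1623 and 1417 FPKM. The 12 IL6-iMH libraries averaged 5693 FPKM against 4459 for the 12 passaged IL6-iHPC libraries, and the line at P35 was the lowest of both kinds. Over hepatocytes the mean difference was 10.27 ± 0.08 log2 in IL6-iMHs and 9.80 ± 0.08 in passaged IL6-iHPCs.

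**Figure D1:**
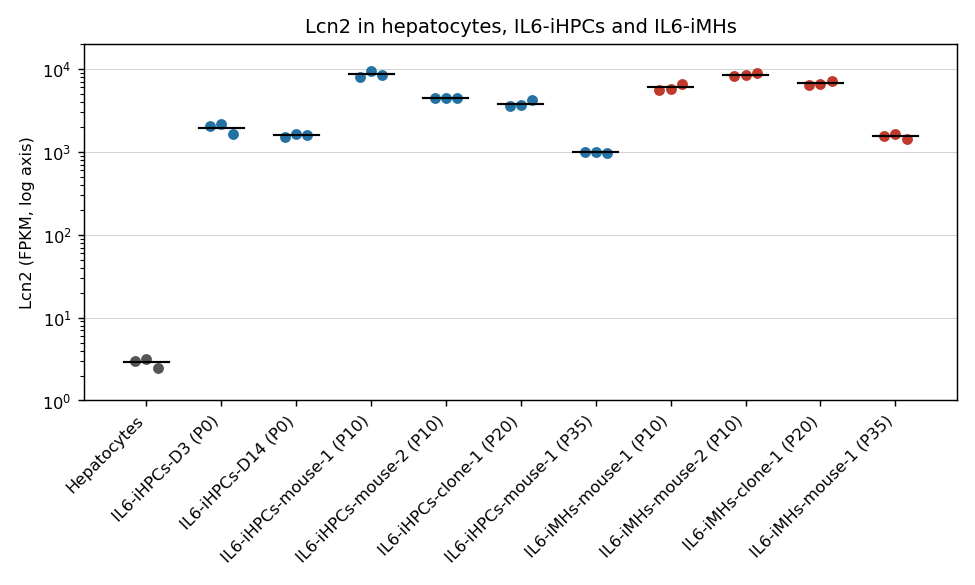
Lcn2 in the 11 groups of the cell table, in FPKM on a log10 y axis, with a point for each of the 3 libraries and a bar for the group mean. Hepatocytes lie near 3 FPKM and every cultured library lies between 964 and 9442 FPKM, with both P35 groups of mouse-1 and the first cultures at the low end.

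Maturation moved Lcn2 in different directions in different passaged groups, and in mouse-1 the direction differed between P10 and P35. Its mean fell to 0.694 of that of the progenitors in mouse-1 (P10), where the ranges of 5579.9 to 6623 FPKM and 7979 to 9442 FPKM did not overlap. In mouse-2 (P10) the matured mean was 1.93 times that of the progenitors, in clone-1 1.76 times and in mouse-1 at P35 1.55 times, again without overlap. Since IL6-iMHs chose the gene, these ratios carry no test, and the median of all genes was itself -0.40 log2 in IL6-iMHs against IL6-iHPCs over the 4 lines and -0.08 after quantile normalization. Under that normalization the difference of Lcn2 over the 4 lines was 0.02 log2 in place of 0.47.

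**Figure D2:**
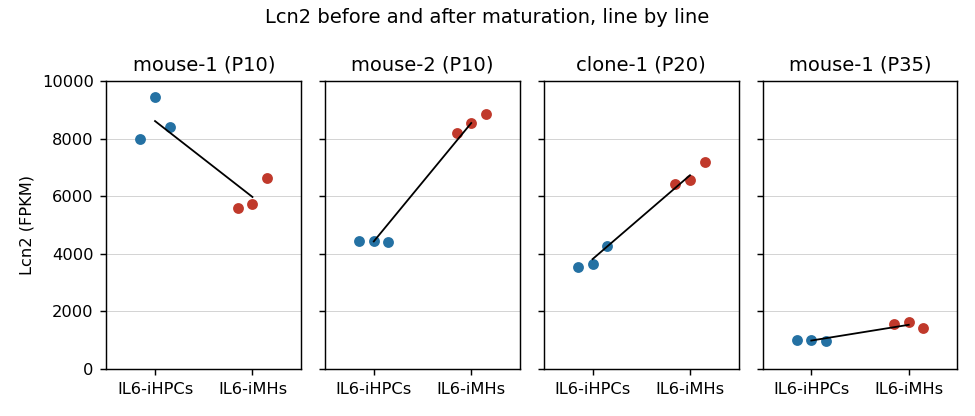
Lcn2 in FPKM on the y axis, from 0, before and after maturation of each of the 4 lines, with a point for each library and a line that joins the group means. The line falls for mouse-1 at P10 and climbs for the other 3 lines.

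In order of level, IL6-iHPCs-mouse-1 (P10) and IL6-iMHs-mouse-2 (P10) came first and overlapped, followed by IL6-iMHs of clone-1 and of mouse-1 (P10), which also overlapped. Next came IL6-iHPCs of mouse-2 (P10) and of clone-1, each apart from its neighbours. Day 3 overlapped with day 14, and day 14 with IL6-iMHs-mouse-1 (P35). IL6-iHPCs-mouse-1 (P35) was the lowest cultured group, yet 342 times the hepatocytes.

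Hepatocyte genes moved otherwise. All 12 genes of a hepatocyte list fell at day 3 against hepatocytes and all 12 were higher in IL6-iMHs than in IL6-iHPCs. In those 2 comparisons 12.1% of genes fell and 6.68% rose, in that order. Alb, serum albumin, was at 50009.5 FPKM on average in hepatocytes, 381 FPKM at day 3 and 53442 to 62143 FPKM in the 4 groups of IL6-iMHs. Other hepatocyte genes stayed lower in IL6-iMHs than in hepatocytes: 9 of the 12 fell, where 7.79% of all genes fell, among them Cyp2e1, a cytochrome P450, which fell by 9.10 ± 0.07.

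In normal liver Lcn2 was at 4.64, 3.72 and 7.68 FPKM, a low level that 177 to 379 reads a library measured. At 6 h after PHX it was at 2752, 3150.4 and 3618 FPKM, and at 24 h at 2582, 5470.2 and 4472 FPKM. All 6 libraries lay far above normal liver, without overlap. At day 3 the 3 libraries held 1709.7, 6557 and 331 FPKM and so spread over a wider range than those of any other time. At day 7 they held 215, 324 and 329 FPKM, and at day 14 they held 18.4, 21.6 and 41.0 FPKM.

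Lcn2 rose by 9.01 ± 0.71 log2 at 6 h (limma with Benjamini-Hochberg adjustment, adjusted p = 5.58e-07), by 9.34 ± 0.71 at 24 h (adjusted p = 1.48e-06), by 7.98 ± 0.71 at day 3 (adjusted p = 7.68e-06) and by 5.54 ± 0.71 at day 7 (adjusted p = 2.60e-05). Among 11114 genes tested these were the second, the first, the first and the third largest rises. Called rises made up 4.78% of genes at 6 h, 3.74% at 24 h, 3.33% at day 3, 7.81% at day 7 and 0.981% at day 14. At day 14 Lcn2 was still above normal liver in each of 3 libraries, but the difference of 2.10 ± 0.71 had an adjusted p of 0.0532 and was not called. It was called with a pseudocount of 0.1 (adjusted p = 0.0375), with quantile normalization (adjusted p = 0.0335) and with a fit of only those 2 groups (adjusted p = 0.00104).

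Between successive times, Lcn2 at 24 h against 6 h differed by 0.34 ± 0.71 log2 (adjusted p = 0.739) and at day 3 against 24 h by -1.36 ± 0.71 (adjusted p = 0.175), so the early peak could not be placed at one time. Lcn2 then fell by 2.44 ± 0.71 from day 3 to day 7 (adjusted p = 0.0148) and fell by 3.43 ± 0.71 from day 7 to day 14 (adjusted p = 0.00191), where 1.31% and 7.35% of genes fell. The first of these falls was lost in a fit of those 2 groups alone (adjusted p = 0.131) and without PHX-D7 replicate 1 (-2.24, adjusted p = 0.0595). In bulk liver, a change in RNA per cell and a change in the number of cells that make it cannot be told apart.

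The libraries of day 3 stood apart from each other, and results that use them moved with them. All liver comparisons also share 1 estimate of spread, to which day 3 adds, so the SE of 0.71 at other times depends on it too. Against normal liver, fits of only the groups compared gave an SE of 0.22 at 6 h and 0.97 at day 3. Without replicate 3, the lowest, Lcn2 was 9.09 log2 above normal liver at day 3 (adjusted p = 1.39e-07), -0.25 against 24 h (adjusted p = 0.742), and fell by 3.55 from day 3 to day 7 (adjusted p = 7.74e-05). Without replicate 2, the highest, it was 6.94 above normal liver (adjusted p = 1.15e-06), fell by 2.40 from 24 h (adjusted p = 0.00321), a comparison in which 1.65% of genes fell with all libraries, and its fall to day 7 kept its call (adjusted p = 0.0428). Replicate 3 was low in other acute phase genes too: in replicates 1, 2 and 3 Saa1 was at 7673, 6161 and 1018 FPKM. Hp was at 10345, 9374 and 3165 FPKM in the same order. Replicate 2 was high in some genes of other cells. Marco, a macrophage receptor, was at 37.1, 162 and 20.6 FPKM, and S100a8, a neutrophil protein, at 3.85, 18.3 and 1.21 FPKM. Prtn3, a protease of neutrophil granules, went the other way and was lowest in replicate 2. Marco is 1 of 8 genes of a Kupffer cell list that summed to 139 to 344 FPKM in these livers. The others are not given here by replicate, so Marco does not stand for the list. The part of these differences in the spread of Lcn2 was not tested.

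**Figure D3:**
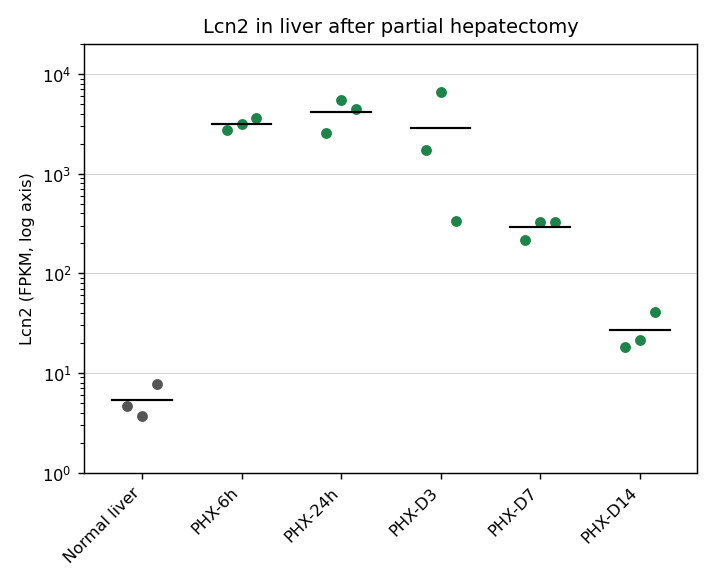
Lcn2 in normal liver and at 5 times after PHX, in FPKM on a log10 y axis, with a point for each of the 3 livers and a bar for the group mean. The 6 livers of 6 h and 24 h lie between 2582 and 5470.2 FPKM, the 3 of day 3 spread from 331 to 6557 FPKM, and day 14 lies at 18.4 to 41.0 FPKM, above the 3.72 to 7.68 FPKM of normal liver.

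Other acute phase genes rose with Lcn2 in the liver. Of 28 that passed the filter on low values, out of 29 listed, 23 rose at 6 h, 25 at 24 h, 21 at day 3, 10 at day 7 and 3 at day 14. The shares of all genes that rose were 4.78%, 3.74%, 3.33%, 7.81% and 0.981% in the same order. The median of the list was 2.19 log2 at 6 h against -0.28 over all genes. Mt2, a metallothionein that binds zinc and copper, was at 2.92 to 4.598 FPKM in the 3 normal livers and at 3995, 3442 and 3658 FPKM at 6 h. Its rise of 9.62 ± 0.47 log2 at 6 h (adjusted p = 5.79e-09) was followed by 8.66 ± 0.47 at 24 h (adjusted p = 8.22e-08). Saa2 rose by 7.78 ± 0.69 at 6 h (adjusted p = 1.51e-06) and by 8.36 ± 0.69 at 24 h (adjusted p = 3.29e-06), and Saa1 by 6.08 ± 0.59 and 6.90 ± 0.59. Hp, whose mean in normal liver was already 2325 FPKM, rose by 2.01 ± 0.33 at 6 h (adjusted p = 0.000167). Saa1 with Saa2, and Mt1 with Mt2, are close copies whose reads the counting may have shared, so their single values are uncertain.

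At day 3 of culture the same genes parted from Lcn2. This does not hold for culture as a whole. Saa1, like Lcn2, had its highest mean among the cell groups in IL6-iHPCs-mouse-1 (P10), at 1230 FPKM. At day 3 against hepatocytes, 8 of 29 acute phase genes rose and 10 fell, with a median of -0.49 log2 against 1.14 over all genes. In that comparison 53.9% of all genes rose and 12.1% fell, and rises made up 81.6% of the called genes, or 53.6% after quantile normalization. Saa1 was at 86.6, 77.6 and 91.2 FPKM in hepatocytes and at 49.1, 76.9 and 33.2 FPKM at day 3, a difference of -0.75 ± 0.19 that did not reach 2-fold (adjusted p = 0.000562). Hamp, hepcidin, the hormone that lowers iron release into the blood, fell by 6.39 ± 0.18 (adjusted p = 4.54e-24), and Crp fell by 5.92 ± 0.11 (adjusted p = 4.07e-28). Those that rose most were Mt2 at 5.65 ± 0.14 (adjusted p = 3.84e-25), Cd14, a receptor for bacterial lipopolysaccharide, at 5.28 ± 0.09 (adjusted p = 1.31e-29), and Saa3 at 4.23 ± 0.26 (adjusted p = 9.87e-16). After PHX, Hamp rose by 2.79 ± 0.77 (adjusted p = 0.00678) and Cd14 by 5.15 ± 1.33 (adjusted p = 0.00454) at 6 h, whereas at 24 h Hamp (1.41 ± 0.77, adjusted p = 0.168) and Cd14 (2.99 ± 1.33, adjusted p = 0.0948) did not pass the test.

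**Figure D4:**
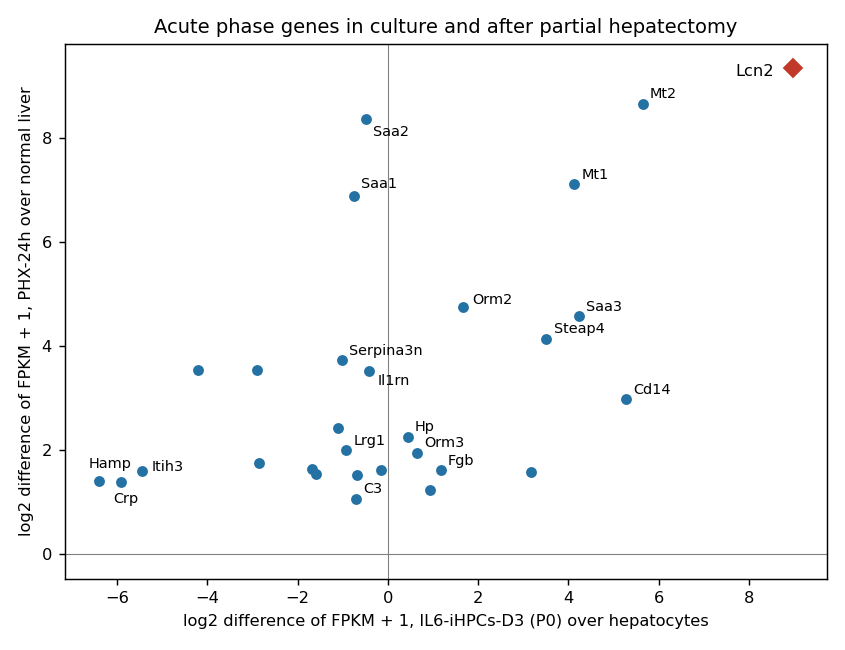
Acute phase genes that passed the filter in both tables, with the log2 difference of FPKM + 1 at day 3 of IL6 culture over hepatocytes on the x axis and the log2 difference at 24 h after PHX over normal liver on the y axis. Lcn2 (diamond) lies at 8.97 and 9.34, Mt1 and Mt2 come nearest to it, and Saa1 and Saa2 lie high on the y axis and left of 0 on the x axis.

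Genes of the IL6 receptor complex and of STAT3 feedback were read beside Lcn2. After PHX, Il6ra, the IL6 receptor, rose by 1.52 ± 0.36 log2 at 6 h (adjusted p = 0.00265), Stat3 by 1.64 ± 0.17 (adjusted p = 4.29e-06) and Socs3, the feedback inhibitor that STAT3 induces, by 2.98 ± 0.65 (adjusted p = 0.00151). Of the 17 genes listed, 5 rose at 6 h, where 4.78% of all genes rose, and 6 fell. The falls depended on scaling: 11.5% of all genes fell at 6 h, and after quantile normalization all 6 of those calls were lost. The share of rises among all called genes was 29.3% at 6 h and 52.9% after quantile normalization.

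At day 3 of culture 9 of the 17 rose, near the 53.9% of all genes that rose, with a median of 1.24 log2 against 1.14 over all genes, and 2 fell (5 after quantile normalization). Osmr was at 0.0272, 0.0106 and 0.0655 FPKM in hepatocytes and at 29.4 to 35.7 FPKM in the 3 libraries of day 3, a rise of 5.05 ± 0.09 log2 (adjusted p = 8.07e-29). In the whole liver Osmr was at a mean of 0.625 FPKM and rose by 1.43 ± 0.25 at 24 h (adjusted p = 0.000795). Stat3 rose by 1.88 ± 0.08 in culture (adjusted p = 3.95e-20). Socs3 was at a mean of 63.4 FPKM in hepatocytes and 98.6 FPKM at day 3, 0.63 ± 0.06 apart and under 2-fold. In IL6-iMHs against IL6-iHPCs, where the culture held no added IL6 but oncostatin M, Socs3 fell by 2.61 ± 0.03 (adjusted p = 2.02e-32) and Osmr fell by 2.55 ± 0.04 (adjusted p = 1.15e-28), while Lcn2 was at 1417 to 8863 FPKM in the matured cells. Of all genes 21.4% fell there, and rises made up 23.8% of the called genes, or 52.0% after quantile normalization.

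Among NF-kB and C/EBP factors and their inputs, 7 of 20 rose at 6 h after PHX, where 4.78% of all genes rose, and 16 of 20 at day 3 of culture, where 53.9% of all genes rose. Il1r1 rose by 3.73 ± 0.36 log2 at 6 h (adjusted p = 2.79e-06) and by 2.49 ± 0.09 in culture (adjusted p = 1.22e-21). Nfkbiz, the NF-kB cofactor needed for many delayed genes, rose by 1.16 ± 0.27 at 6 h (adjusted p = 0.00259) and by 3.98 ± 0.07 in culture (adjusted p = 4.16e-29). Cebpd rose by 2.91 ± 0.36 at 6 h (adjusted p = 1.47e-05) and by 3.19 ± 0.09 in culture (adjusted p = 1.66e-23), and Cebpb by 1.91 ± 0.31 and 1.89 ± 0.32. Cebpa, the C/EBP factor of resting hepatocytes, fell by 2.37 ± 0.35 (adjusted p = 6.61e-05) and fell by 2.49 ± 0.08 (adjusted p = 4.29e-23). Zc3h12a, the ribonuclease Regnase-1, which degrades many inflammatory transcripts, was at 0.65 ± 0.29 at 6 h (adjusted p = 0.0691) and was 2.48 ± 0.10 higher at day 3 of culture, a call lost under quantile normalization.

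The described receptors of lipocalin-2 were low throughout. Slc22a17 was at most 1.51 FPKM in any cell library and 0.423 FPKM in any liver, and Lrp2 at most 0.238 and 0.0856 FPKM. Mmp9 did not exceed 0.577 FPKM in cells. In liver it was under 1 FPKM in normal liver and up to day 3, and at a mean of 2.80 FPKM at day 7. It passed the filter only through the later livers, so this difference of 1.67 ± 0.15 log2 is given as a description. Of 10 genes of this and the iron list that passed the filter, out of 13, 1 rose and 2 fell at 6 h. Of all genes 4.78% rose and 11.5% fell there, so these counts are not a trait of the list. Hmox1, the heme oxygenase that frees iron from heme, rose by 2.41 ± 0.56 (adjusted p = 0.00232), and Slc40a1, the iron exporter ferroportin, fell by 2.29 ± 0.27 (adjusted p = 9.71e-06). In culture Hmox1 rose by 7.14 ± 0.09 at day 3 (adjusted p = 1.37e-32).

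Most other members of the lipocalin family did not share the pattern of Lcn2, whereas the orosomucoids shared its rise in liver. At day 3 of culture 24 of 28 that passed the filter fell, where 12.1% of all genes fell, and 1 rose, where 53.9% rose. Of 33 members listed for the cells, 7 were under 1 FPKM in every hepatocyte library and 21 in every library of day 3. Members that passed the filter through hepatocytes alone could hardly do other than fall, so the filter set part of this count. The 1 that rose was Orm2, an orosomucoid, by 1.67 log2. Among those that fell were major urinary proteins (Mup), pheromone carriers whose close copies share reads. Mup3 fell by 8.01 ± 0.15 log2 (adjusted p = 3.62e-28) and Rbp4, the retinol carrier of plasma, fell by 3.69 ± 0.09 (adjusted p = 1.68e-25). After PHX, 4 of 29 rose at 6 h, where 4.78% of all genes rose. At day 3 after PHX, 16 fell and 3 rose, where 2.49% of all genes fell and 3.33% rose. Orm1, Orm2 and Orm3, the orosomucoids, each rose at 6 h, 24 h and day 3. Of these, Orm2 rose by 3.25 ± 0.70 at 6 h (adjusted p = 0.00136) and by 5.25 ± 0.70 at day 3 (adjusted p = 0.00022). In liver Mup3 was at -0.47 ± 0.35 at 6 h (adjusted p = 0.271) and fell by 2.80 ± 0.35 at day 3 (adjusted p = 0.000123).

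Neutrophils carry Lcn2, so their genes were read beside it. In livers, the summed level of 14 neutrophil genes was 3.61 to 9.46 FPKM in normal liver, 48.5 to 50.4 at 6 h, 20.9 to 95.9 at 24 h, 56.8 to 149 at day 3, 86.0 to 154 at day 7 and 26.6 to 35.4 at day 14. Of the 9 that passed the filter, 4 rose at 6 h, 3 at 24 h, 2 at day 3 and 7 at day 7. The shares of all genes that rose were 4.78%, 3.74%, 3.33% and 7.81% in the same order. In every normal liver 11 of the 14 were under 1 FPKM, against 5 in every liver of day 7. Most of those tested thus passed the filter through livers after PHX, which favours a rise over normal liver. With a filter at 5 FPKM the count at day 7 went from 7 to 4. S100a8 was up by 2.92 ± 0.69 log2 at 6 h (adjusted p = 0.0027) and by 3.70 ± 0.69 at day 7 (adjusted p = 0.000883). Granule genes differed: no liver was above 0.467 FPKM of Ltf, 1.61 of Camp, 1.78 of Ngp, 0.359 of Mpo or 0.620 of Elane, whereas Prtn3, the granule protease proteinase 3, rose by 3.25 ± 0.75 at day 3 (adjusted p = 0.00598), with 84.8, 3.54 and 48.1 FPKM in replicates 1, 2 and 3. Chil3, a chitinase-like protein of myeloid cells, was at 0.382, 99.5 and 0.370 FPKM in the same livers, highest in the one with the most Lcn2, and did not pass the test (2.40 ± 1.10, adjusted p = 0.11). The median sum was highest at day 7, at 108 FPKM, but close to the 100 FPKM of day 3, and the ranges of both times overlapped. In each liver of day 3 most of the sum was Prtn3 or Chil3, so it is a poor measure of neutrophils there. Lcn2 was at 215 to 329 FPKM at day 7, and at 2752 to 3618 FPKM at 6 h beside a sum of 48.5 to 50.4. The part of neutrophils in the level of Lcn2 was not tested. The Kupffer cell list, 8 genes, summed to 129 to 218 FPKM in normal liver, 40.9 to 90.5 at 6 h and 775 to 1126 at day 7. All 8 rose at day 7, where 7.81% of all genes rose.

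In cells the 14 neutrophil genes summed to 9.19 to 10.6 FPKM in hepatocytes and to at most 3.68 FPKM in the other groups, apart from 2: IL6-iHPCs-mouse-1 (P35) at 87.6 to 93.2 FPKM and IL6-iHPCs-clone-1 (P20) at 28.2 to 37.0 FPKM. Both sums were mainly S100a8, at means of 84.0 and 26.8 FPKM, while Mpo was at most 0.0405 and Ltf at most 0.188 FPKM in any cell library. These are the passaged lines with the lowest Lcn2, and the relation was not tested. The Kupffer cell list summed to at most 21.4 FPKM in any cell library.

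Genes most like Lcn2 were found by the correlation of group means of log2(FPKM + 1), among genes whose group means spanned at least 2 log2 units, as a description. Over the 11 cell groups, of which hepatocytes set most of the span, the 5 highest of 7210 genes were Mt2 (r = 0.971), Mt1 (0.958), the glycyl-tRNA synthetase Gars (0.953), Tmsb10 (0.939) and Ndrg1 (0.935). Over the 6 liver groups, the 5 highest of 999 genes were Saa1 (0.992), Saa2 (0.992), the chemokine Cxcl1 (0.984), the plasma glutathione peroxidase Gpx3 (0.981) and Fndc3b (0.975). Saa1 reached only 0.344 over the cell groups. Ranked by the lower of both values over 712 genes, Mt1 (0.894) and Mt2 (0.883) came first, before Snx10 (0.860), Cd63 (0.860) and Map3k6 (0.856), and none passed 0.9 in both tables.

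**Figure D5:**
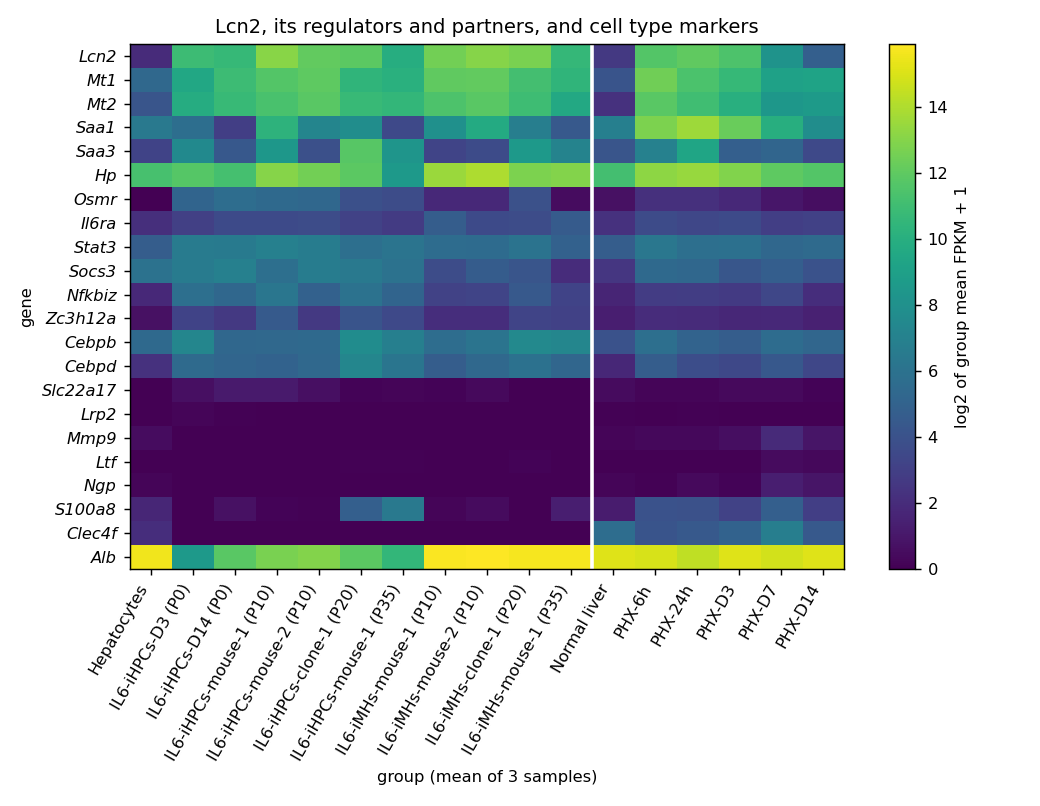
Group means as log2(mean FPKM + 1), by colour, of 22 genes (y axis) in the 11 cell groups and, right of the white line, the 6 liver groups (x axis), which come from separate tables. Lcn2, Mt1 and Mt2 are dark in hepatocytes and normal liver and brighter in each other group, while Slc22a17, Lrp2, Mmp9, Ltf and Ngp are dark across the map.

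The effect of IL6 itself on Lcn2 could not be read here, since the table of day 7, which alone compares culture with and without IL6, lists 480 symbols and Lcn2 is not analysed there. Of the factors named above it holds Cebpd. Cebpd was at 2.75, 2.66 and 2.98 FPKM in primary hepatocytes, at 11.3, 8.62 and 9.05 FPKM after 7 days in medium without IL6, and at 58.9, 74.5 and 63.2 FPKM after 7 days with IL6. The groups did not overlap, and the difference with against without IL6 was 2.64 ± 0.10 log2 (limma, adjusted p = 1.30e-09 over 276 genes tested), where 4.71% of those genes rose. The table as used here is incomplete, ending in a line cut short, so that the absence of Lcn2 from it says nothing about its level and the 276 genes are only part of those measured.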

How the data were processed

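Poly(A) RNA-seq of 60 mouse samples was deposited by the authors as 3 tables of FPKM per gene symbol: cells (33 samples), livers (18) and day 7 cultures (9), the last of which ends in 1 incomplete line that was left out. The submitters' processing notes name TopHat 1.4.1, Cufflinks 1.3.0 and mm10. The FPKM unit comes from those notes and the values, since the headers do not state it. FPKM values of the 18826 cell and 17327 liver genes listed once with a value were whole multiples of the value of 1 read, to within 0.05 reads, so reads were recovered from the deposited FPKM (counting error only). They gave each library's depth and reads of Lcn2.

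Samples were grouped by their titles. Each table was fitted whole with limma 3.58.1 (R 4.3.3, trend) on log2(FPKM + 1), keeping genes that reached 1 FPKM in 3 or more samples. A fold on this scale understates changes of low genes. A call needed a Benjamini-Hochberg adjusted p under 0.05 over all tested genes and at least 2-fold. The code was tested on simulated data. Lcn2 reached 1 FPKM in every library. Fits against hepatocytes and of IL6-iMHs give no p for Lcn2.

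Named genes were Lcn2, fixed genes of its pathway, from each list the 3 largest called rises and falls in the comparisons of 6 h, 24 h and day 3 after PHX, of IL6-iHPCs-D3 and of IL6-iMHs, and the 5 genes most like Lcn2 in each table and in both. Rbp4, Camp, Mpo, Elane and Chil3 were named after their values were seen. Lcn2 and all lists were chosen with earlier results of these data known. Motifs were searched in RefSeq promoters. Alternatives were pseudocount 0.1, no filter or a filter at 5 FPKM, quantile normalization, only the groups compared, at least 1.5-fold, each replicate left out, a replicate block and, added after seeing the data, limma voom on recovered reads. Equal numbers do not pair samples: all 3 same-numbered samples deviated together (r over 0.1) in 1 pair of groups, IL6-iMHs-mouse-1 (P35) with IL6-iHPCs-mouse-2 (P10), which are different lines. Python 3.11.15, pandas 2.3.3, NumPy 2.4.6 and matplotlib 3.10.9 were used.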

Additional observations from a re-analysis of the deposited data

Results flagged for a closer look

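The direction of Lcn2 over maturation differed between passaged groups, also between P10 and P35 of mouse-1. Its mean in IL6-iMHs was 0.694 of that in the IL6-iHPCs of mouse-1 (P10), with all 3 matured libraries below all 3 progenitor libraries. It was 1.93 times that of the progenitors in mouse-2 (P10), 1.76 times in clone-1 (P20) and 1.55 times in mouse-1 (P35), with all 3 matured libraries above in each. This difference in direction was not tested, since the matured cells chose the gene, and each group is 1 preparation.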

How the results depend on the processing

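The rise of Lcn2 at 6 h, 24 h, day 3 and day 7 after PHX kept its direction and its call under every alternative. At day 14 it was called at 2.29 log2 with pseudocount 0.1, 2.14 with quantile normalization and 2.10 with only the groups compared, and from day 3 to day 7 the change of -2.44 was not called with only the groups compared, which pool fewer samples. Quantile normalization took the difference of passaged IL6-iHPCs from day 14 to 0.96, under 2-fold, and that of mouse-2 (P10) from mouse-1 (P10) to -2.06, past it. Against hepatocytes, pseudocount 0.1, quantile normalization and limma voom gave 9.35, 8.71 and 9.38 at day 3, 9.07, 8.05 and 9.09 at day 14, 10.19, 9.01 and 10.21 for passaged IL6-iHPCs, and 10.65, 9.03 and 10.68 for IL6-iMHs. Over maturation, quantile normalization gave 0.021 for the mean of 4 lines, -1.41 for mouse-1 (P10), 0.71 for mouse-2 (P10) and 0.24 for clone-1. This normalization gives all libraries 1 set of values, in which Lcn2 ranks among the highest.

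With each replicate left out, the difference ranged from -2.40 to -0.25 for day 3 against 24 h after PHX, from -3.55 to -1.40 for day 7 against day 3, from 8.89 to 9.09 for IL6-iHPCs-D3 against hepatocytes and from -1.01 to -0.89 for mouse-2 (P10) against mouse-1 (P10). Without mouse-1 (P10) replicate 1 the last was called. No other Lcn2 call changed apart from those given with the liver values. With a replicate block all 23 Lcn2 results kept their value and call (9.01 at 6 h after PHX), and the numbers of called genes stayed within 0.985 to 1.01 times. Equal numbers do not pair these samples.

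Numbers of called genes moved by over 1.5 times with pseudocount 0.1 in 12 of 23 comparisons (up to 2.35 times), with limma voom in 16 (up to 2.70), with at least 1.5-fold in 19 (up to 3.70), with a filter at 5 FPKM in 2 (down to 0.614) and with quantile normalization in 1 (0.659). Quantile normalization also moved the median of all genes at day 3 of culture from 1.14 to 0.11. Rises made up 88.4% of called genes at day 7 after PHX and 72.4% after it, 84.5% and 66.0% at day 7 against day 3, 5.66% and 17.4% at day 14 against day 7, and 73.9% and 51.3% in clone-1 against mouse-1 (P10). In the lists, called neutrophil genes went from 4 to 7 at 6 h and from 2 to 6 at day 3 with pseudocount 0.1. At day 7 they went from 7 to 4 with a filter at 5 FPKM. The NF-kB and C/EBP genes that rose at P35 went from 4 to 1 with quantile normalization.

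Lcn2 had 120 reads or more in every library. The cell groups hold technical repeats of 1 preparation, with a residual SD of 0.12 log2 for Lcn2, against 0.97 log2 in liver.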
